A study of Mus musculus with 12 samples.

Results

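The question here was what the component labelled D adds to a membrane-coated particle. The labels describe NP-D@M and NP@M as treatments of mouse immune cells from marrow, with the name TAMC under the cell line tag, and each group held 3 libraries whose RNA was taken after 24 h. PBS was the vehicle in the same series, and NP-D@MP was a particle with both D and P, with 3 libraries each. None of NP, D, M, P or TAMC is spelled out in the labels, so these names are kept. The series title speaks of a nanodrug in a cancer cell membrane directed at cyclin-dependent kinases (CDKs). Retinas are named in the extraction protocol, in conflict with the tissue label. Whether the 3 libraries of a group came from separate cultures or animals is not said, so the tests cover the spread between libraries, which may be technical. The comparison covers 7872 of the 11669 genes in the table, those with a deposited value of at least 1 FPKM (fragments scaled by gene length and library size) in at least 3 of the 6 libraries of NP@M and NP-D@M. Of these, 7213 were protein-coding.

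Several CDKs act on transcription itself. They phosphorylate the long tail of RNA polymerase II, first as the enzyme leaves the promoter and again as it passes into elongation, and the small nuclear RNA 7SK holds one of these kinases in an inactive particle. In myeloid cells, many signalling regulators are made from short-lived mRNAs, while the mRNAs of lysosomal enzymes, ribosomal proteins and ferritin are long-lived. These are general facts and were not measured here.

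The libraries with D differed from those without in the scale of the deposited values. Each value times its gene's length came out as a whole number of reads once divided by 1 step per library. The reads recovered this way numbered 15080519 to 16013348 per library for NP@M and 15621052 to 16826338 for NP-D@M. The step, however, stood for a library of another size. The ratio of recovered reads to that size was 0.428 ± 0.00354 (SD, n = 3) without D and 1.93 ± 0.135 with D. Median-of-ratios factors, which level the median gene across libraries, were only 0.963 to 1.03 for the 12 deposited columns. The deposited values thus already lay near a scale on which the median gene is set as unchanged. A balance of higher and lower calls as deposited is therefore not a finding of its own. How the authors reached this scale was not tested. Scaling every library to the same sum of value times length, called equal totals below, lowers all log2 fold changes between the groups by a common -2.17, apart from the effect of the pseudocount. Neither scale counts RNA per cell, and in such bulk libraries fewer cells of a type and less RNA per cell cannot be told apart. Counts of called genes are given on both scales, and values of single genes are as deposited unless equal totals are named. In NP-D@M the 10 most abundant genes took 34.4% ± 0.740 of the recovered reads, against 11.5% ± 1.21 in NP@M. The mitochondrially encoded genes took 1.89% ± 0.137 against 0.854% ± 0.0881. In both measures the groups did not overlap, and an exact permutation test gave the smallest p that 3 against 3 allows, 0.1.

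One library stood apart within its group. Across genes, NP@M replicate 2 correlated with its group mates at 0.879 and 0.899, while replicates 1 and 3 correlated at 0.993 and the NP-D@M libraries at 0.988 to 0.991. It was closest to PBS replicate 3, at 0.963. In NP@M replicate 2 short genes were low and long genes high relative to the group mean. Where leaving it out moved the count of a gene list described below by over 1.5 times, that count is given.

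On the deposited scale, limma on log2(FPKM + 1) called 3670 genes higher (46.6% of those tested) and 3614 lower (45.9%) in NP-D@M, at an adjusted p under 0.05. The median log2 fold change over all tested genes was 0.30. At equal totals, 763 genes (9.69%) were higher and 4876 (61.9%) were lower, and the median was -1.50. All 3614 genes that fell as deposited also fell at equal totals, and all 763 that rose at equal totals also rose as deposited. The common step of -2.17 between the scales set this nesting nearly in advance. A call on both scales below is thus the stricter of the 2 calls and not a second check. For most of the other genes the call depended on the scale. As deposited, 2117 genes (26.9%) rose that were not called at equal totals, and 790 (10%) rose on the deposited scale but fell at equal totals. A further 472 (6%) fell at equal totals alone. Only 116 genes (1.47%) were called on neither scale. Quantile normalization, which gives every library the same distribution of values, moved the deposited median to -0.17, with 2677 genes higher and 2991 lower. When a change of over 1 on the log2 scale was required, 2060 genes were higher and 1735 lower as deposited, and 110 were higher at equal totals.

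The minimum of 1 FPKM decided part of these counts. Of the tested genes, 2098 reached it only in NP@M libraries and 502 only in NP-D@M libraries, and such genes had to differ as deposited. Of the first, 2090 were called lower as deposited and 2098 at equal totals, and of the second 494 and 181 were called higher. The other 5272 genes reached 1 FPKM in libraries of both groups. Among those, 60.2% rose and 28.9% fell as deposited, and 11% rose and 52.3% fell at equal totals. At the edge of the rule, the 2631 genes that reached 1 FPKM in exactly 3 libraries had median levels of 2.33 FPKM without D and 0.368 with D, and the 568 left out with 2 libraries had 0.997 and 0.459. For gene groups that fell, the number that reached 1 FPKM in both groups of libraries is therefore given beside the full count.

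**Figure D1:**
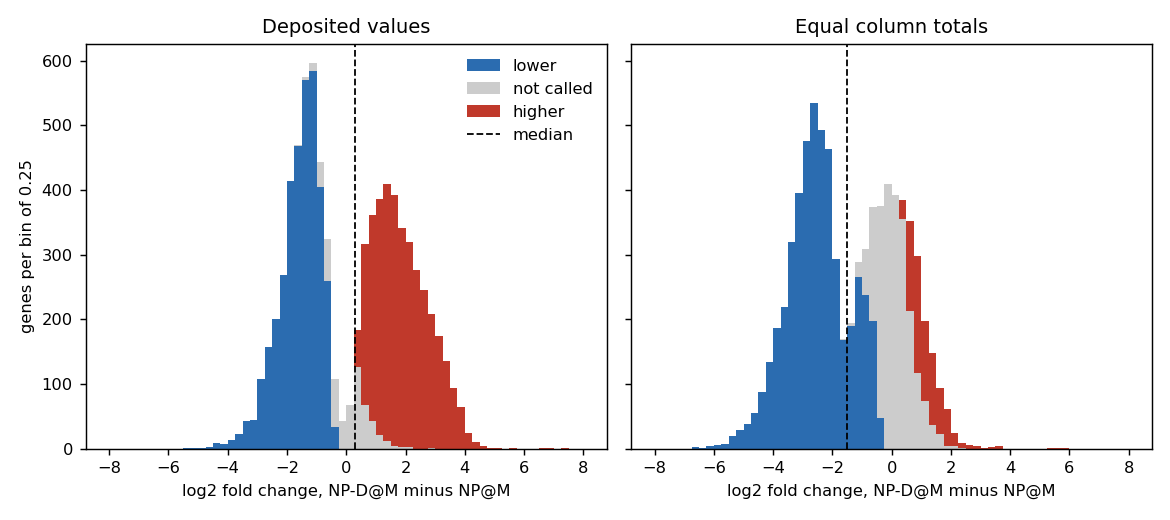
Number of tested genes (y axis) by log2 fold change of NP-D@M against NP@M (x axis, bins of 0.25) on the deposited scale and at equal column totals, coloured by limma call, with the median as a dashed line. The deposited distribution has 1 mode on each side of 0 and a median of 0.30, and at equal totals the median moves to -1.50.

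The genes with the largest changes on both scales were of many kinds. Among those that rose, Rn7sk, Rnu5g, Snora17, Rnu1a1, Snord118, Hist1h4n and mt-Ty encode short RNAs or a histone, Ccl12 and Pf4 are chemokines, Npy is a secreted neuropeptide, Fabp5 binds fatty acids and Ms4a7 is a membrane protein of macrophages. At equal totals their log2 fold changes lay between 2.41 and 5.78. Of these, mt-Ty was not called at equal totals without NP@M replicate 2 (1.81, limma adjusted p = 0.0609). Pf4 had 969.9, 286 and 897 FPKM in NP@M, with replicate 2 the lowest, and 18531, 23070.0 and 17660.0 in NP-D@M. Among those that fell, Fpr1, Ptafr, Tlr2 and Cxcr4 are surface receptors, and Dusp6, Sgk1 and Trib3 act on kinase signalling. Xbp1 and Ets2 are transcription factors, Zfp36l2 binds mRNA, G0s2 inhibits a lipase and Tor4a is a torsin ATPase. As deposited their log2 fold changes lay between -5.43 and -4.32. Sgk1 had 48.3, 86.6 and 49 FPKM without D and 0.826, 0.884 and 0.529 with D, and Ptafr, whose ligand is the lipid platelet-activating factor, had 35.4, 39.1 and 35.8 FPKM without D and 0.477, 0.666 and 0.62 with D. In each of these 24 genes the groups did not overlap on either scale, which the rule that chose them required. Over all tested genes this was so for 47.8% higher and 46.6% lower as deposited, and for 13.7% and 64.2% at equal totals.

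Genes of the transcription apparatus were mixed, and those for elongation mostly fell on both scales. Of 20 tested genes for transcription elongation and its kinases, 16 fell as deposited and 19 at equal totals, against the 45.9% and 61.9% of all tested genes given above. The list's median log2 fold changes were -1.58 and -2.81. Of the 11 that reached 1 FPKM in both groups, 7 fell on both scales. Polr2a encodes the largest subunit of RNA polymerase II, the one that carries the tail. Its FPKM values were 22.6, 43.7 and 27 in NP@M replicates 1 to 3 and 1.96, 2.33 and 2.26 in NP-D@M. All 3 libraries with D lay below all 3 without, and the log2 fold change was -3.28 ± 0.30 (SE, limma adjusted p = 1.7e-06) as deposited and -5.05 at equal totals. The catalytic partner Polr2b fell as well (-2.28 and -3.57 on the log2 scale). The 11 tested polymerase subunits were split. On both scales 5 (45.5%, near the 45.9% of all tested genes) were lower and 1, Polr2g, was higher. Polr2g, a stalk subunit, had 20.3, 18 and 21.5 FPKM in NP@M against 170.2, 149 and 209 in NP-D@M, and its log2 fold change was 3.07 as deposited and 0.95 at equal totals.

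Supt6, an elongation factor that travels with the polymerase, fell by a log2 fold change of -1.97. Ccnk and Cdk13, a cyclin and a kinase that form a pair acting on the polymerase tail, changed by -1.47 and -1.73. Cdk7, the kinase of the initiation factor TFIIH, changed by -1.18. All of these genes fell further at equal totals. Of 21 Mediator subunits, which bridge transcription factors and the polymerase, 12 fell and 5 rose as deposited, and 18 fell and 1 rose at equal totals. Of the 13 that reached 1 FPKM in both groups, 4 (30.8%) fell on both scales, near the 28.9% of all 5272 such genes, and 5 rose as deposited. Med17, in the head of the complex, went from 5.34, 6.92 and 5.56 to 0.137, 0.181 and 0.133 FPKM, and the groups did not overlap. The subunit that rose on both scales was Med30 (2.65 as deposited and 0.69 at equal totals).

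Most sequence-specific transcription factors fell. The authors' table names a factor family for 373 tested protein-coding genes, of which 82.8% fell and 1.88% rose on both scales, against 47.5% and 9.05% of the 6840 without a family. Of these factor genes, 220 reached 1 FPKM in NP@M alone. Of the 145 that reached it in both groups, 61.4% fell and 2.76% rose on both scales, against 28.9% and 11% of all 5272 such genes. Factor genes were longer (median exonic length 5212 bases against 4078.5), and calls varied with length as described further on. In each quintile of exonic length the share that fell was larger among factor genes. In the shortest quintile the shares lower on both scales were 52.9% of 34 factor genes and 21.3% of 1409 others, and in the longest quintile 92.9% of 112 and 69.2% of 1331. The shares include genes that reached 1 FPKM in 1 group only. They are given as a description without a test, since genes of 1 library are not independent.

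All 8 genes of the Rel homology family fell on both scales, and 4 of them reached 1 FPKM in both groups. Nfkb1, which makes the p105 and p50 forms of NF-kB, was at 9.03, 14 and 8.94 FPKM in NP@M against 1.53, 1.92 and 1.54 in NP-D@M (log2 fold change -2.10 ± 0.19 (SE), limma adjusted p = 1.5e-06). Rela, the transactivating p65 subunit, was at 27.5, 11.5 and 28.8 FPKM without D and 1.41, 2.11 and 1.99 with D. In NP@M replicate 2 Rela was lower than in its group mates but still above all libraries with D. Of the 12 ARID family genes, all fell on both scales, but 11 of them reached 1 FPKM in NP@M alone. Of the 13 ETS family genes, 12 fell on both scales, and 10 of the 13 reached 1 FPKM in NP@M alone. Ets2, a target of growth factor signalling, had 24.7, 34.8 and 26.2 FPKM without D and 0.22, 0.353 and 0.488 with D, and a log2 fold change of -4.44 ± 0.19 (SE, limma adjusted p = 5.7e-08). Spi1, the PU.1 factor that directs myeloid differentiation, went from 99.2, 64.6 and 93.4 to 30.8, 24.8 and 28.8 FPKM, with groups that did not overlap. Of the 8 interferon regulatory factors, 7 fell on both scales and Irf7 rose, and of the 5 that reached 1 FPKM in both groups 4 fell. Irf8, which is needed for monocyte and dendritic cell development, changed by -2.51 as deposited and -3.95 at equal totals. Irf7, an interferon-inducible amplifier of type I interferon genes, had 15.2, 12.1 and 12.8 FPKM without D and 237, 211 and 211 with D. Its log2 fold change was 3.94 as deposited and 1.84 at equal totals, against the direction of the other 7. All 9 tested Klf genes fell on both scales.

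Immediate early factors, which are induced within minutes of a stimulus, fell in 12 of 18 cases as deposited and in 14 at equal totals. Of the 13 that reached 1 FPKM in both groups, 7 fell on both scales. Bhlhe40, a bHLH repressor, had 52.1, 57.1 and 59 FPKM in NP@M against 2.21, 1.79 and 1.72 in NP-D@M. Fosl2, an AP-1 subunit, had 16.8, 19.2 and 16.3 FPKM without D and 0.382, 0.303 and 0.408 with D, and Egr2, a zinc finger factor, had 19.6, 18.1 and 20.1 FPKM without D and 1.12, 0.751 and 1.06 with D. In these 3 genes each library with D was below every library without, and the log2 fold changes were -4.30, -3.75 and -3.36 (limma adjusted p = 4.5e-08, 5e-08 and 8.7e-08). As deposited, 4 members rose, among them Junb and Ier3, and without NP@M replicate 2 this number was 2 and with quantile normalization 0. Junb was at 73.8, 12.8 and 65.9 FPKM in NP@M, where replicate 2 stood apart, and at 187, 136 and 163 in NP-D@M, and at equal totals it was not called (log2 fold change -0.15, limma adjusted p = 0.88). The deposited call of Junb was lost without NP@M replicate 2 (log2 fold change 1.19, limma adjusted p = 0.153) and without any 1 of the NP-D@M libraries (adjusted p from 0.0582 to 0.0862).

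Genes that restrain signalling fell together. Of 11 genes for feedback on MAP kinase and receptor tyrosine kinase signalling, 9 fell on both scales, and of the 4 that reached 1 FPKM in both groups 3 fell. Dusp6, a phosphatase that inactivates ERK, had 41.2, 59.3 and 49.4 FPKM in NP@M against 0.148, 0.0814 and 0.288 in NP-D@M. No NP-D@M library reached 1 FPKM, and the log2 fold change of -5.43 ± 0.21 (SE, limma adjusted p = 4.5e-08) was the largest fall among named genes as deposited. Of 17 genes for NF-kB subunits and feedback, 16 fell as deposited and all 17 at equal totals, and of the 12 that reached 1 FPKM in both groups 11 fell on both scales. Tnfaip3, the A20 enzyme that ends NF-kB signalling, went from 10.5, 16.4 and 10.1 to 0.32, 0.494 and 0.359 FPKM. Nfkbia, the NF-kB inhibitor that is resynthesised after each stimulus, had 73.4, 53.9 and 74.4 FPKM without D and 22.4, 14.5 and 19.2 with D, log2 fold changes of -3.23 and -1.80 for the 2 genes. All 9 cytokine signal suppressors fell on both scales, and so did all 19 E3 ubiquitin ligases of signalling and p53, of which 17 fell as deposited without NP@M replicate 2. In these lists 6 and 7 genes reached 1 FPKM in both groups, and all of those fell. Ptpn6, the phosphatase SHP-1 of blood cells, had 61.5, 35 and 66.6 FPKM without D and 4.09, 3.78 and 3.62 with D, and Mdm2, the ligase of p53, changed by -1.66 on the log2 scale as deposited.

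Proteins that bind AU-rich mRNAs or remove poly(A) tails fell in 19 of 21 cases on both scales, with medians of -1.87 and -3.10. Of the 8 that reached 1 FPKM in both groups, 6 fell on both scales. Zfp36l2 and Btg1 had the largest named falls. Zfp36l2, which recruits the deadenylase to AU-rich messages, had 36.8, 24.4 and 38.7 FPKM without D and 0.754, 0.144 and 0.958 with D. Btg1, which binds the deadenylase, had 77.3, 64.5 and 75.6 FPKM without D and 6.12, 5.99 and 5.08 with D, with a log2 fold change of -3.45 ± 0.21 (SE, limma adjusted p = 1.3e-07). The related Zfp36, tristetraprolin, went the other way as deposited (1.96) and was not called at equal totals (-0.10, limma adjusted p = 0.89), nor with quantile normalization (0.87). Splicing factors fell in 25 of 34 cases on both scales, and histone lysine methylation and acetylation enzymes in 29 of 33. The histone enzyme genes were long (median 8780 exonic bases), and calls varied with length as described further on. Of the 25 and 10 that reached 1 FPKM in both groups, 16 and 6 fell on both scales. Srsf1, a founding SR protein, went from 7.53, 9.64 and 7.11 to 0.263, 0.491 and 0.434 FPKM. Kdm4a, a histone demethylase, went from 9.66, 17 and 10.4 to 0.8, 0.441 and 1.03 FPKM.

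Receptors on the cell surface did not move as 1 group. Of 27 pattern recognition receptors and adaptors, 20 fell on both scales and 2 rose on both, and of the 18 that reached 1 FPKM in both groups 11 fell. Tlr2, the receptor for bacterial lipoproteins, had 66.4, 104 and 73.6 FPKM in NP@M against 3.95, 2.12 and 3.18 in NP-D@M (log2 fold change -4.33 ± 0.28 (SE), limma adjusted p = 2e-07). Nlrp3, the inflammasome sensor, had 20.7, 28.9 and 25.3 FPKM without D and 1.37, 1.35 and 1.61 with D. The 2 that rose were the C-type lectins Clec4n, dectin-2, and Clec4d. Clec4n had 439, 401 and 403 FPKM without D and 6286, 5241 and 4881 with D, and its log2 fold change was 3.71 as deposited, 1.55 at equal totals and 0.57, without a call, with quantile normalization. Among 10 Fc and complement receptors, 6 rose and 2 fell on both scales, and the 2 that fell were the receptors for complement fragments C3a and C5a. C5ar1 had 40.3, 37 and 43.4 FPKM without D and 3.2, 3.52 and 3.51 with D, and C3ar1 had 49.5, 80.9 and 52.8 FPKM without D and 4.08, 6.63 and 5.52 with D. Fcgr4, an activating receptor for IgG, had 15, 7.54 and 13.8 FPKM without D and 142, 156 and 161 with D, so that C5ar1 was above Fcgr4 per kilobase in every library without D and below it in every library with D. Fcer1g, the signalling chain shared by such receptors, rose by 3.62 and 1.46 on the 2 scales. Cxcr4 and Fpr1, receptors for CXCL12 and formyl peptides, fell on both scales by log2 fold changes of -4.32 and -4.95 as deposited.

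Genes of lysosomal proteases rose on both scales. All 16 genes for cathepsins and their inhibitors rose as deposited, against 46.6% of all tested genes, and 12 rose at equal totals, against 9.69%. All 16 reached 1 FPKM in both groups. With quantile normalization 10 rose and 0 fell. Their medians were 3.22 and 1.19 on the log2 scale. Ctsb, a lysosomal cysteine protease, had 466, 430.3 and 458 FPKM in NP@M against 7232, 9422 and 7432 in NP-D@M. The 3 libraries with D were all above the highest without it, and the log2 fold change was 4.14 ± 0.20 (SE, limma adjusted p = 7.2e-08) as deposited and 1.98 ± 0.18 (adjusted p = 1.2e-06) at equal totals. Lgmn, an asparaginyl protease that processes cathepsins, had 93.9, 63.2 and 87 FPKM without D and 1339.7, 1896 and 1489.6 with D and a log2 fold change of 2.11 at equal totals. Ctsl and Ctss rose by 1.79 and 1.55 at equal totals. Npc2, which carries cholesterol out of the lysosome, had 93, 48.2 and 81.4 FPKM without D and 1043, 1206 and 1073 with D. Of 16 subunits of the proton pump that acidifies the lysosome, 14 rose and 2 fell as deposited, and 5 rose and 5 fell at equal totals. On both scales 5 (31.2%) were higher and 2 (12.5%) lower, against 9.69% and 45.9% of all tested genes. Tfeb, a transcription factor for lysosomal genes, was lower on both scales (-2.01 and -3.07), and its values were 4.07, 1.94 and 4.39 FPKM without D and 0.0816, 0.09 and 0.0398 with D.

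**Figure D2:**
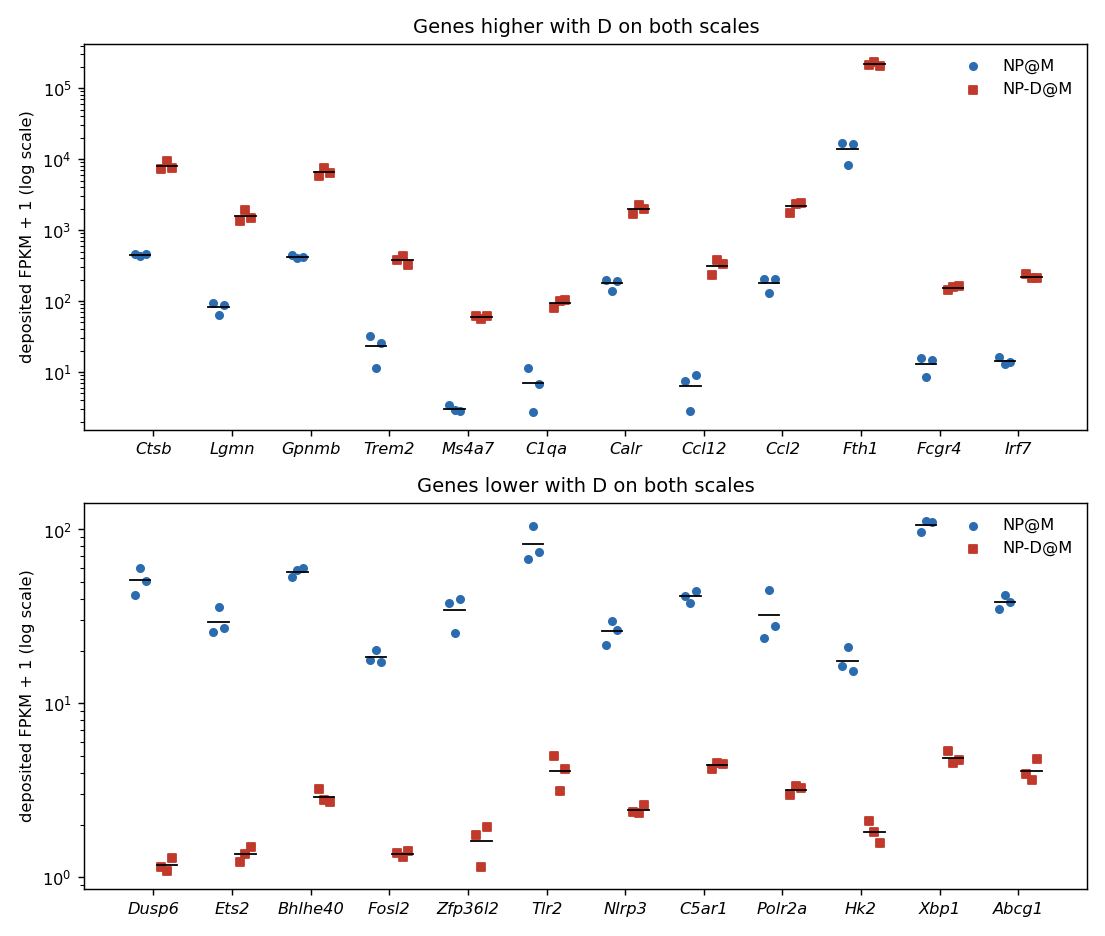
Deposited FPKM + 1 on a log axis for 12 genes higher (top) and 12 genes lower (bottom) with D on both scales, with 1 point per library of NP@M (blue circles) and NP-D@M (red squares) and a black line at the mean. In each of the 24 genes the 3 libraries with D lie on 1 side of the 3 libraries without D.

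Chemokines rose in 19 of 20 cases as deposited and in 15 at equal totals (12 without NP@M replicate 2), with medians of 3.57 and 1.44, and all 20 reached 1 FPKM in both groups. Ccl2, which attracts monocytes, had 202, 130.2 and 204 FPKM in NP@M against 1716, 2368 and 2412 in NP-D@M (log2 fold change 3.60 ± 0.23 (SE), limma adjusted p = 1.8e-07). Ccl12, a related monocyte chemokine of the mouse, had 6.48, 1.85 and 7.97 FPKM without D and 231, 374 and 330.4 with D, and replicate 2 of NP@M was the lowest. The member not called on either scale was Ccl4, at 116, 32 and 116 FPKM without D and at 333, 41.3 and 79.9 with D, where the libraries of each group spread widely and the groups overlapped. Without NP-D@M replicate 1, the highest, Ccl4 was called lower at equal totals (log2 fold change -2.56, limma adjusted p = 0.0247). Cytokines were less uniform. Of 15 interleukins and tumour necrosis factor ligands, 7 rose and 5 fell as deposited, and at equal totals 1 rose and 7 fell. Of all tested genes, 46.6% rose and 45.9% fell as deposited, and 9.69% rose and 61.9% fell at equal totals. The number that rose is near these shares. The 5 (33.3%) lower on both scales compare with 45.9% of all tested genes.

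Secretory pathway folding genes rose in 16 of 17 cases as deposited and in 10 at equal totals. Calr, the calcium-binding chaperone calreticulin, had 197, 140.1 and 193 FPKM without D and 1711, 2284 and 1998 with D (log2 fold change 3.50 ± 0.20 (SE), limma adjusted p = 8.9e-08). Pdia6, a disulfide isomerase, had 42.4, 27.8 and 38 FPKM without D and 359, 466 and 425 with D. Hspa5, the chaperone BiP, rose as deposited (1.72) but fell at equal totals (-0.44, limma adjusted p = 0.0497) and with quantile normalization (-0.73). The call at equal totals was lost without any 1 of 5 of the 6 libraries, with adjusted p from 0.0733 to 0.155. The transcription factor of the unfolded protein response, Xbp1, did not follow these genes. Xbp1 had 95.6, 111 and 109 FPKM without D and 4.35, 3.53 and 3.75 with D, a log2 fold change of -4.45 ± 0.17 (SE, limma adjusted p = 4.5e-08). Syvn1, the ligase that removes misfolded proteins, also fell (-1.85). Of 25 iron and redox genes, 8 rose and 6 fell on both scales. The ferritin heavy chain Fth1 had 16849, 8170.5 and 16157 FPKM in NP@M against 212780.0, 238070.0 and 203130.0 in NP-D@M, and Prdx1, a peroxidase, had 133, 119.9 and 124 FPKM without D and 2258, 1858 and 1884 with D. Nfe2l2, the factor NRF2 that controls such genes, had 17.2, 19.7 and 19.1 FPKM without D and 4.14, 3.59 and 4.84 with D, and its enzyme targets Txnrd1 and Srxn1 changed by -1.79 and -1.54. In lipid handling, 6 of 20 genes rose and 5 fell on both scales. Gpnmb and Trem2, genes of lipid-laden macrophages, had 439.8, 401 and 419 against 5845, 7622 and 6368 FPKM and 31.4, 10.5 and 25 against 376, 425 and 326 FPKM. Abcg1, which exports cholesterol, had 33.9, 41.2 and 37.4 FPKM without D and 2.9, 2.6 and 3.77 with D, and Plin2, which coats lipid droplets, had 198, 216 and 209 FPKM without D and 78.5, 54.3 and 48.7 with D.

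Matrix genes rose in 16 of 18 cases as deposited and in 8 at equal totals, where 4 fell. Mmp12 and Mmp13, metalloproteases of macrophages, rose by log2 fold changes of 1.58 and 1.76 at equal totals. Thbs1, thrombospondin, went from 445, 895 and 529.8 to 64.4, 116 and 89.6 FPKM and fell on both scales. Of 18 glycolysis genes, 10 rose and 7 fell as deposited, with a median of 1.22, and at equal totals 0 rose and 9 fell. The 7 (38.9%) lower on both scales compare with 45.9% of all tested genes. Hk2, which commits glucose to the cell, had 15.4, 20.2 and 14.3 FPKM without D and 1.1, 0.812 and 0.567 with D, and the glucose transporter gene Slc2a1 had 50.3, 51 and 47.5 FPKM without D and 15.3, 15.9 and 15.2 with D. The libraries of the groups did not overlap in either gene, and the log2 fold changes were -3.26 and -1.62 (limma adjusted p = 9.2e-08 and 7.6e-06).

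**Figure D3:**
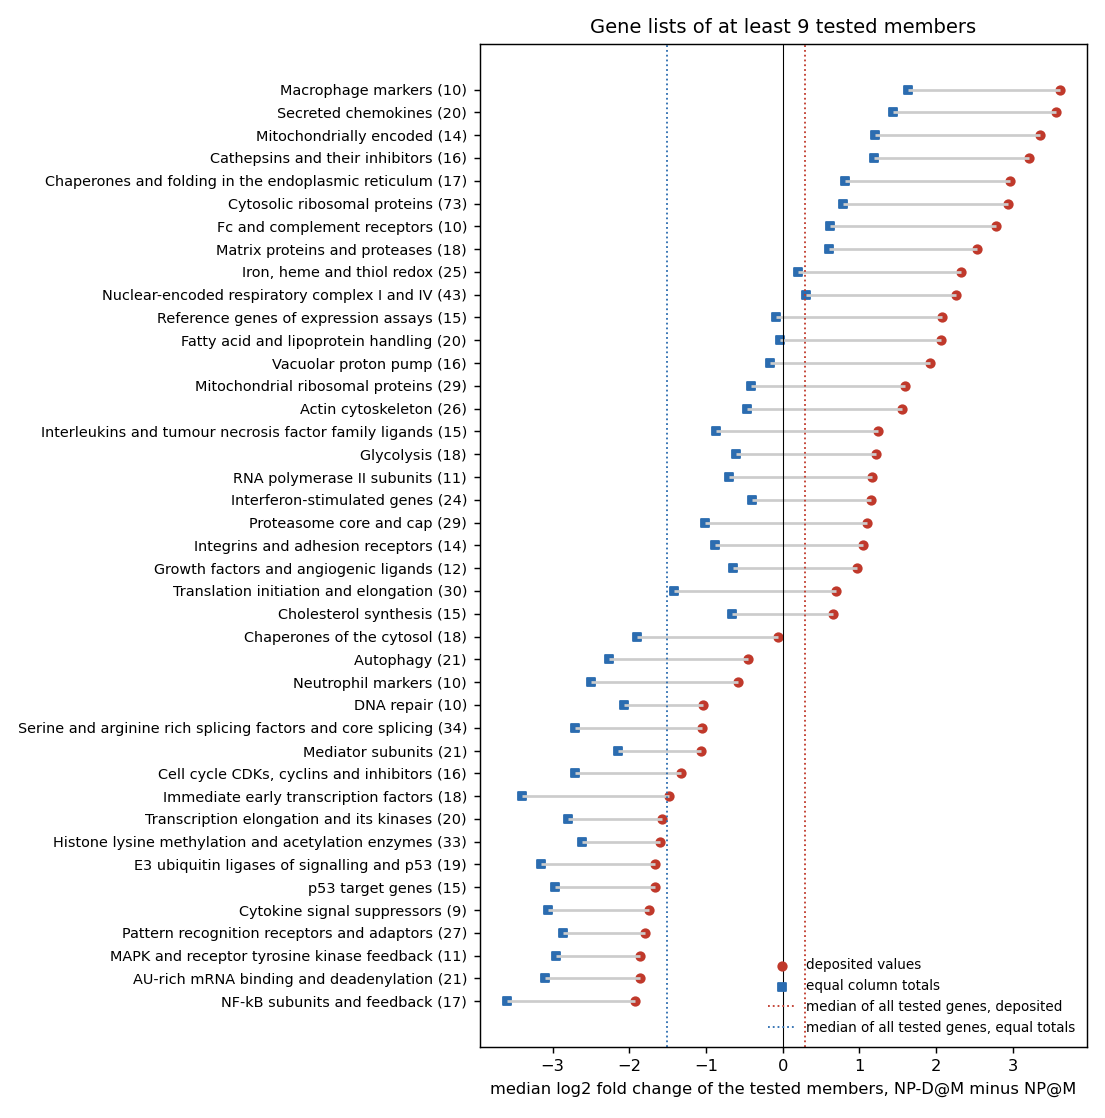
Median log2 fold change of NP-D@M against NP@M over the tested members (their number in brackets) of gene lists with at least 9 such members, on the deposited scale (red circles) and at equal column totals (blue squares), with dotted lines at the medians of all tested genes, 0.30 and -1.50. Among the lists plotted, macrophage markers and chemokines have the highest medians, and NF-kB and AU-rich binding genes the lowest on the deposited scale.

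For ribosomal and mitochondrial genes the answer depended on the scale. Of 73 cytosolic ribosomal protein genes, 70 rose as deposited, 0 fell, and 15 rose at equal totals. Without NP@M replicate 2 the last number was 5. With quantile normalization 18 rose and 1 fell. Rps4x had 155, 125 and 159 FPKM without D and 1457, 1477 and 1402 with D, and a log2 fold change of 1.14 at equal totals (limma adjusted p = 0.00016). Nuclear-encoded genes of respiratory complexes I and IV rose in 41 of 43 cases as deposited while at equal totals 7 rose and 4 fell. Without NP@M replicate 2, 4 rose and 5 fell at equal totals, with a median of -0.03. All 14 tested mitochondrially encoded genes rose as deposited and 7 at equal totals, 5 without NP@M replicate 2. The mitochondrial rRNA gene mt-Rnr1 had 88.7, 75.3 and 87.1 FPKM without D and 1252, 1689 and 1993 with D. Proteasome genes rose in 21 of 29 cases as deposited (17 without NP@M replicate 2), while at equal totals 0 rose and 18 fell, and with quantile normalization 2 rose and 10 fell. The 18 that fell are near the 61.9% of all tested genes lower at equal totals. As deposited, 46.6% of all tested genes rose. Translation factors divided, with 13 of 30 lower on both scales and 0 higher on both. The 13 (43.3%) are near the 45.9% of all tested genes, of which 9.69% were higher on both. Eif3a, the largest subunit of the initiation factor eIF3, had 17.1, 30.2 and 18.5 FPKM in NP@M against 1.07, 0.936 and 1.33 in NP-D@M, whereas the elongation factor Eef1a1 had 1243, 1012 and 1338 FPKM without D and 6158, 7435 and 7778 with D and was not called at equal totals (0.41, limma adjusted p = 0.071).

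The 790 genes that changed sign between the scales included abundant ones. Cd14, the co-receptor for lipopolysaccharide, had 468, 343 and 465 FPKM as deposited without D and 1311, 1298 and 1298 with D. At equal totals its values were 1097, 793 and 1092 without D and 725, 626 and 685 with D. The groups did not overlap on either scale and stood in opposite order, with log2 fold changes of 1.63 ± 0.20 and -0.54 ± 0.21 (SE, limma adjusted p = 1.3e-05 and 0.036). The call of Cd14 at equal totals was lost without any 1 of the 6 libraries other than NP@M replicate 2 (adjusted p from 0.0525 to 0.116). Actg1, Hsp90ab1 and C3 also rose as deposited and fell at equal totals, and all 4 genes fell with quantile normalization. Genes often used as a reference gave no common answer. Of 15 tested, 4 rose and 4 fell on both scales. Actb, cytoplasmic actin, had 1142, 1454 and 1124 FPKM in NP@M against 561, 509 and 496 in NP-D@M and fell on both scales (-1.24 and -3.40). Ppia, cyclophilin A, had 33.9, 28 and 32.8 FPKM without D and 393, 353 and 481 with D and rose on both scales (3.65 and 1.51). Hprt and Pgk1 rose as deposited (2.28 and 2.08) and at equal totals were at 0.16 and -0.08 (limma adjusted p = 0.49 and 0.63), and with quantile normalization Pgk1 was at -0.59 without a call. Gapdh was low in the table, with 1.36, 1.72 and 1.25 FPKM without D and 2.35, 2.16 and 116 with D, where replicate 3 stood apart from the other two.

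Small nuclear RNAs, the RNA parts of the spliceosome, were nearly undetected without D. Of 15 tested genes of this class, 14 rose on both scales and 1 fell, with medians of 3.35 and 2.54. The 14 reached 1 FPKM in NP-D@M alone and the 1 in NP@M alone, so each had to differ as deposited, and their number is a description. In 13 of the 15, all 3 NP@M libraries had 0 reads, so the change is a lower bound set by 3 reads per library. The counts behind these values were small, from 0 to 48 recovered reads per gene and library in NP-D@M. Rnu5g, a U5 gene, had 0, 0 and 0 reads without D and 21, 23 and 17 with D, at least 29.1-fold higher as deposited and at least 6.46-fold at equal totals. Rnu12, the U12 RNA of the minor spliceosome, on the plus strand at chr15:83149644-83149794 of GRCm38, had 0, 0 and 0 reads without D and 20, 6 and 7 with D, at least 15.5-fold and 3.54-fold higher. Gm24265, on the plus strand at chr5:115489459-115489599, had 0, 0 and 0 reads without D and 45, 17 and 17 with D, at least 37.2-fold and 8.46-fold higher. The sequences of Rnu12 and Gm24265, from GENCODE M21 transcripts 5′ to 3′, show what these genes share that their values do not, and capitals mark the motif ATTTTTG, of the kind bound by the ring of Sm proteins that stabilises such RNAs.
Rnu12: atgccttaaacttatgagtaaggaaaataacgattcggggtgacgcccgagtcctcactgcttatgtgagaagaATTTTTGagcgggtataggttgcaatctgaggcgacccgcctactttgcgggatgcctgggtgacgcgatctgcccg
Gm24265: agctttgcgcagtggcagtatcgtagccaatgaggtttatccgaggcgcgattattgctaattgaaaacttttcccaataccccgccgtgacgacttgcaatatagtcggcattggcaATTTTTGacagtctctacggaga

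A search for ATTTTG, and for the same letters with 1 or 2 more T, on the transcript strand found a match in 12 of the 15 tested genes (80%). In all 1383 genes of this class in GENCODE M21 the share was 8.97%, and in the first 150 bases of 7198 tested protein-coding transcripts it was 2.53%. The 3 without a match were Rnu1a1, Gm22818 and Gm25047. A match is a description of letters, not a mapped site. Several copies cannot be told apart by reads. Gm23849 and Gm23971 are identical over 191 bases, and Gm23444 differs from Gm23849 at 1 position. Gm25047, on chromosome X, was the gene that fell, with 51, 139 and 39 reads without D and 0, 0 and 0 with D.

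Other short transcripts were also called. All 22 tested histone genes of the Hist clusters rose as deposited, 18 rose at equal totals and 1, Hist2h2be, fell there. Of the 22, 17 reached 1 FPKM in NP-D@M alone, and of the other 5 all rose as deposited and 4 at equal totals. Most mRNAs of these clusters end in a stem-loop and not in poly(A). Hist1h1c, a linker histone, carried the most reads, 2286, 2118 and 2967 without D and 3230, 2450 and 2689 with D, and at equal totals its log2 fold change was 0.12 (limma adjusted p = 0.68). Hist1h2bc had 235, 106 and 229 reads without D and 848, 814 and 731 with D and rose on both scales (3.95 and 1.97). Hist4h4 had 0, 0 and 0 reads without D and 107, 51 and 71 with D, at least 108-fold higher as deposited and 24.3-fold at equal totals. All 5 tested small nucleolar RNA genes, which act in the modification or cleavage of ribosomal RNA, rose as deposited, and 4 rose at equal totals, with 3 of the 5 at 1 FPKM or more in NP-D@M alone. Rn7sk, the 7SK RNA, had 0.256, 0 and 0.0803 FPKM without D and 107, 93.2 and 213 with D.

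Calls varied with gene length. Protein-coding genes were divided into quintiles by exonic length, from at most 2269 bases to at least 7006. In the shortest quintile 19.3% rose and 22% fell on both scales, and in the longest 2.36% rose and 71% fell. The median deposited log2 fold change went from 1.63 in the shortest through 0.72, -0.66 and -0.97 to -1.17 in the longest quintile. At equal totals it went from -0.06 through -1.10, -1.98 and -2.26 to -2.39. Across the 7213 genes, Spearman's rho between exonic length and log2 fold change was -0.365 as deposited and -0.341 at equal totals, a description across genes that share libraries. For GC content of the transcript it was 0.0184 and 0.0025. The gene lists above differed in length as well. Median exonic length was 8780 bases for histone lysine enzymes and 7146 for E3 ligases, against 1216 for chemokines and 1770 for cytosolic ribosomal proteins. It was similar, 3885 and 3745 bases, for NF-kB genes, which fell, and secretory folding genes, which mostly rose as deposited. Apart from the factor genes, lists were not compared within quintiles. NP@M replicate 2 itself departed from its group mates by length, with median deviations of -0.72 in the shortest and 0.54 in the longest quintile (log2). Without that library the deposited medians were 1.45, 0.59, -0.68, -0.90 and -0.99, in the same order. In the NP-D@M libraries no median deviation by quintile exceeded 0.142 in size.

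**Figure D4:**
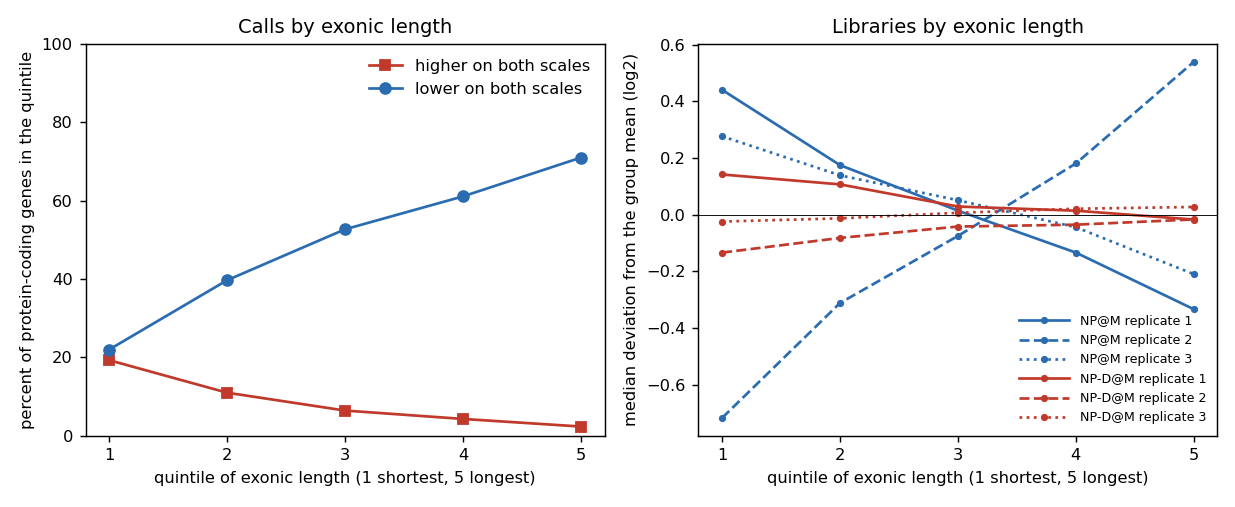
Left, percent of protein-coding genes called higher or lower on both scales (y axis) in each quintile of exonic length (x axis). Right, median log2 deviation of each library from its group mean by the same quintiles, where NP@M replicate 2 runs from -0.72 to 0.54 against the slope of its group mates.

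Promoters of the 2 sets differed modestly in base composition. RefSeq windows from 250 bases before to 50 after the start (GRCm38) were found for 5752 of 7037 protein-coding genes outside chromosome 18. Median GC was 57.7% in the 478 genes higher on both scales and 62.7% in the 2864 lower on both. The letters TATAAA, searched on both strands, occurred in 11.9% of the higher, 6.15% of the lower, 6.97% of the 5752 tested and 14.2% of all promoters in the table. The cyclic AMP response element TGACGTCA occurred in 0.837%, 3.46%, 3.18% and 1.88% of these sets in turn, and the ETS motif CCGGAAGT in 6.28%, 10.5%, 9.61% and 4%. For both, the share among the lower genes was near that of all tested genes. No test was made on these shares.

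The pair NP-D@MP and PBS, which shares no library with the pair above, gave a second measure of a particle with D against none. It differs from the first pair in P and in having no particle in the control. Over the same 7872 genes it called 3670 higher (46.6%) and 3610 lower (45.9%) as deposited, and 739 (9.39%) and 4944 (62.8%) at equal totals. Of the 3670 genes higher here, 3489 (95.1% of each list) were higher there, and of the 3614 lower here 3488 (96.5%, and 96.6% of the other list) were lower there. The overlap at equal totals was 601 of 763 higher genes (78.8%, and 81.3% of the other list) and 4760 of 4876 lower genes (97.6% and 96.3%). Pearson's r of the log2 fold changes across genes was 0.986 as deposited and 0.984 at equal totals. Dusp6 changed by -5.43 here and -5.36 there, Ctsb by 4.14 and 4.21, and Polr2a by -3.28 and -3.12. The difference of the 2 comparisons, tested directly in limma, was called for 0 genes on either scale. As deposited, 1 gene was called without NP-D@MP replicate 2 (mt-Tt) and 1 without NP@M replicate 1 (Gm24366). Unadjusted p-values under 0.05 numbered 154 and 112, voom on the recovered reads also called 0, and the smallest adjusted p was 0.456 as deposited and 0.441 at equal totals. Each control group held 1 library that stood apart, NP@M replicate 2 and PBS replicate 3, which correlated at 0.963. Such libraries widen the spread that the test uses and touch both comparisons. The lack of calls therefore does not show that the 2 effects were equal. Csf3 (3.89 here, 1.58 there) and Il1a (-1.17 and -2.95) are examples of genes whose estimates lay apart without a call.

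**Figure D5:**
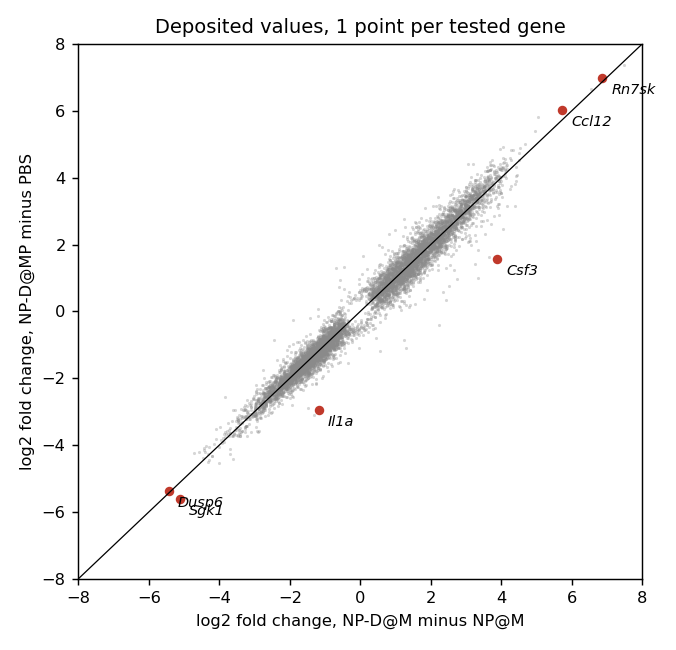
Log2 fold change of NP-D@M against NP@M (x axis) and of NP-D@MP against PBS (y axis) on the deposited scale for each of the 7872 tested genes, with a line of equality and 6 named genes in red. Points follow the line, with a Pearson r of 0.986 across genes.

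Markers of cell types moved with D. All 10 macrophage markers were tested, and 9 rose and 1 fell as deposited, while at equal totals 6 rose and 2 fell. Lyz2, lysozyme, had 2220.4, 1937 and 2317 FPKM without D and 25459, 33149 and 23236 with D and was at 0.01, without a call, with quantile normalization. C1qa, a chain of complement C1q, had 10.4, 1.72 and 5.85 FPKM without D and 78.2, 100.2 and 103 with D, and Cd68, a lysosomal membrane protein, had 373, 134 and 404 FPKM without D and 3791, 4603 and 4359.5 with D. Ms4a7 had 2.45, 1.89 and 1.84 FPKM without D and 60.1, 55.1 and 60.8 with D. Mertk, a receptor for apoptotic cells, fell on both scales (-1.02 and -2.14), and without NP@M replicate 2 (-0.82) and without NP-D@M replicate 1 or 2 it was not called as deposited (limma adjusted p from 0.0524 to 0.0768). The summed level of the list went from 2488 to 2972 FPKM over the NP@M libraries to 29550 to 40090 over NP-D@M as deposited, and from 5757 to 6986 to 15580 to 19350 at equal totals. Lyz2 alone made up most of each of these sums, so they say little of the other members. Of the 12 neutrophil markers 10 were tested, and 2 rose and 3 fell as deposited, while at equal totals 9 fell. Without NP@M replicate 2 the deposited numbers were 1 and 5. Cxcr2, a chemokine receptor of neutrophils, had 9.37, 15.4 and 12.2 FPKM without D and 0.228, 0.0837 and 0.407 with D, and Elane, neutrophil elastase, had 8.97, 6.36 and 8.13 FPKM without D and 1.65, 0.389 and 0.115 with D. S100a9, a calgranulin, had 640.1, 265 and 628 FPKM without D and 593, 602 and 985 with D, and its groups overlapped. With quantile normalization S100a9 fell (-2.33), and 0 neutrophil markers rose and 8 fell. Summed neutrophil markers ran from 1260 to 1780 FPKM without D and from 4391 to 6828 with D as deposited. S100a9 gave at most 985 FPKM of the sums with D, so most came from members not named here. Only 2 of the 10 tested markers rose as deposited, so these sums say little of the list as a whole. At equal totals the sums were 2916 to 4183 and 2430 to 3600, and the groups overlapped. All 3 tested platelet markers, one of them Pf4, rose as deposited, and at equal totals 2 rose and 1 fell. Their sums were 484 to 1198 FPKM without D and 20400 to 26100 with D as deposited, and 1120 to 2808 and 10750 to 12590 at equal totals. Pf4 alone made up most of each of these sums. The part of cell type shares in the results above was not tested. Of 5 B cell and 5 fibroblast markers, 1 and 2 were in the table and 0 were tested, and those summed to at most 0.315 FPKM in each of the 6 libraries. Of 7 red blood cell and 6 retina markers, 0 were in the table, so their levels are not known here.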

How the data were processed

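RNA libraries of NP@M and NP-D@M (3 each) were compared within a table of 12 libraries. The authors deposited 1 table of normalized values without a unit in its header, and from the values these are read as FPKM, scaled by gene length and library size. They were read so because, multiplied by gene length and divided by a constant of each library, 100% of them lay within 0.05 of whole reads. Per the labels' protocols, an Illumina TruSeq kit was used on total RNA. Bowtie 0.12.2 and mm8 stand without a role in the submitters' processing notes, and the counting tool, the scaling and the choice of genes are not given in the sources used here. Coordinates in the table equalled GENCODE M21 (GRCm38) for 11213 of 11659 genes matched by identifier, so that build is used. Since reads carry no molecular identifiers, floors cover counting error only.

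The genes at 1 FPKM or more in 3 or more of the 6 libraries were fitted as log2(FPKM + 1), using limma 3.58.1 (R 4.3.3) with its trend and robust options and a mean for each of the 4 groups of all 12 libraries. Tests were two-sided, with Benjamini-Hochberg adjustment over 7872 genes. A pseudocount of 1 understates the change of low genes. The fit was repeated at equal column totals of value times gene length. The fit was also run on simulated data with few changed genes, a common scale and no library that stood apart. That run does not cover these features of the real data. Alternatives were a pseudocount of 0.1, no filter, a filter of 5, the 6 libraries alone, no trend and robust options, a fold threshold of 1, median-of-ratios and quantile scaling, voom, and leaving out libraries. Median-of-ratios scaling could change little, since its factors were 0.963 to 1.03, so its agreement adds no support. Named genes are up to 12 per direction with the largest smaller change of the 2 scales, a mean of at least 5 FPKM and groups that do not overlap. They also include up to 4 members per gene list by adjusted p at equal totals, up to 6 abundant genes per class that depended on the scale, and a set of reference genes. Some results that this rule names are not reported here. Members, lists and rule were chosen with earlier results of these data known. Genes chosen after their values were seen are Polr2g, Cdk7, Med30, Rela, Spi1, Irf7, Irf8, Junb, Ier3, Nfkbia, Zfp36, Clec4n, Clec4d, Fcer1g, Npc2, Tfeb, Ccl4, Hspa5, Fth1, Prdx1, Gpnmb, Trem2, Mmp12, Mmp13, Csf3, C1qa, Cd68, S100a9, Igf1, Sqstm1, Gabarapl2, mt-Tt and Gm24366. So are the small nuclear RNA and Hist genes other than Rnu5g, Rnu1a1 and Hist1h4n, and the gene families described by symbol. The rest used Python 3.11.15, numpy 2.4.6, pandas 2.3.3, matplotlib 3.10.9 and scipy 1.17.1.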

Additional observations from a re-analysis of the deposited data

How the results depend on the processing

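Counts of called genes kept within 1.5 times under most settings tried, with these exceptions. Requiring a change of over 1 (log2) gave 2060 higher and 1735 lower genes as deposited and 110 higher at equal totals. The filter of 5 FPKM, with 4206 genes tested, gave 1167 lower as deposited, 1936 lower at equal totals and 1167 lower on both scales. Leaving out each library in turn gave 3489 to 3575 higher and 3480 to 3550 lower as deposited, 624 to 758 higher and 4693 to 4941 lower at equal totals, and 624 to 758 higher and 3480 to 3550 lower on both scales. The difference from NP-D@MP against PBS ran from 0 to 1 in each direction as deposited and from 0 to 0 at equal totals. Leaving out NP@M replicate 2 and PBS replicate 3, the libraries that stood apart, was chosen after seeing the data.

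Of 252 gene results (126 named genes on both scales), 193 kept direction and call under every setting tried on their scale. These were 101 of 126 as deposited and 92 of 126 at equal totals. Quantile and median-of-ratios scaling were run on the deposited values alone, and voom at equal totals alone. Many of these genes were chosen for large changes or small adjusted p in these data, so their stability was partly set by that choice. Agreement under median-of-ratios scaling was nearly fixed in advance, as its factors were close to 1. With the fold threshold of 1, 37 of the gene results lost their call. Quantile normalization of the deposited values ended 10 further calls and turned Junb to -0.03, Hspa5 to -0.73, Fth1 to 0, Eef1a1 to -0.87, Cd14 to -1.39, Actg1 to -2.05, Hsp90ab1 to -1.22, C3 to -1.24, Pgk1 to -0.59 and S100a9 to -2.33. The cause was not tested. Fth1 is the most abundant gene of every library, and quantile normalization sets such a gene equal by construction.

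No paired analysis was possible because the labels give the groups no shared replicate numbers, and no fit with a replicate block was made. Depth limits the small nuclear RNAs most, where 3 reads per library set the bounds. The scale between the groups, which moves all fold changes together, is a further limit, since no measure of RNA per cell was used to choose between the scales.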

Other observations

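Gene families picked by symbol after their values were seen differed in direction. Over all tested genes 9.69% rose and 45.9% fell on both scales. Of 27 tested Usp genes, which encode ubiquitin proteases, 92.6% fell on both scales, and of 20 Trim genes, ubiquitin ligases with a tripartite motif, 95% did. These shares include genes that reached 1 FPKM in NP@M alone. All 6 tested Ms4a genes, tetraspanning membrane proteins of blood cells, rose on both scales. Genes named Cd, for surface antigens, rose in 34.6% and fell in 9.62% of 52 cases on both scales. All 4 tested Ifit genes, which are induced by interferon, rose as deposited, and 0 rose at equal totals. Slc, Tmem and Rab genes fell on both scales in 35.9%, 24.8% and 56.1% of cases and rose in 6.25%, 15.6% and 2.44%.

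Growth factors did not move together. Vegfa, which drives vessel growth, had 18.5, 16.8 and 20.1 FPKM without D and 3.59, 2.35 and 3.1 with D and fell on both scales. Igf1, insulin-like growth factor, had 0.811, 1.04 and 0.727 FPKM without D and 10.7, 13.3 and 13.3 with D, and Csf3, which stimulates neutrophil production, had 4.91, 3.48 and 4.78 FPKM without D and 88.3, 71.6 and 76.6 with D, and both rose on both scales. Of 21 tested autophagy genes, 8 rose and 11 fell as deposited, against 46.6% and 45.9% of all tested genes. The 11 (52.4%) also fell at equal totals. Of the 15 that reached 1 FPKM in both groups, 5 (33.3%) fell on both scales, near the 28.9% of all 5272 such genes. The list as a whole thus stayed near these shares, and the following are single members. The starting kinase Ulk1 and its partner Atg13 fell on both scales (-1.57 and -1.91 as deposited), as did the cargo receptor Sqstm1, with 201, 122 and 188 FPKM without D and 40.5, 17 and 15.7 with D. The membrane conjugate Gabarapl2 rose on both scales, from 8.65, 6.16 and 9.46 to 70.2, 80 and 56.6 FPKM.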
